A study of Rattus norvegicus with 24 samples.

Results

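Collagens are the proteins that build the fibrils, sheets and anchoring threads of the extracellular matrix. The collagen genes described here were every line of the deposited count files whose symbol reads Col, a number, a and a second number. There were 27 of them among the 17048 lines (16881 distinct symbols) of each file, and 22 had enough counts to be tested. Collagen chains with no line under such a symbol in the files, among them Col4a2 and Col6a1, could not be covered. The series measured RNA from rat lung labelled WT after repeated exposure to whole-cigarette smoke condensate (WCSC), the material trapped from the smoke of whole cigarettes. Its 24 libraries formed 8 groups of 3: controls, 5, 10 and 20 mg/mL, each after 6 days and after 12 days. The question set by the design was how dose and length of exposure alter expression in the lung. Strain, sex, age, the route of exposure, what the controls received and whether replicates were separate animals are not stated in the labels, so a p-value measures the spread between these samples, which may be technical.

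Collagen chains wind in threes into a triple helix, are modified in the endoplasmic reticulum, and are then trimmed and crosslinked outside the cell. In lung, type I and type III fibrils give the airway walls, vessel walls and septa their tensile strength, and type IV networks carry the thin barrier between alveolar epithelium and capillary. Fibroblasts and smooth muscle cells make most fibrillar collagen, and scarring after injury is known for an excess of it.

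Total counts ran from 4795667 to 11109713 per library (median 6840815). After thinning every library to 4746678 counts, 11452 to 12481 genes had at least 1 count, and the 8 fewest-detected libraries (11452 to 11757, 6 of them from day 6) stood apart from the other 16 (11922 to 12481). Those 16 had at most 7820928 total counts. The 8 had 8330349 to 11109713, except replicate 1 of the day 12 controls (5048827). Levels are given as CPM, the count scaled to the TMM-adjusted library size, not divided by transcript length, so they are compared between libraries for 1 gene and never between genes. The lung label was checked against marker lists: the 7 measured alveolar type II genes averaged 9.60 to 11.29 and the 8 type I genes 8.03 to 9.44 on the log2(CPM + 1) scale. Replicate 2 of 20 mg/mL at day 12 was lowest in both of these lists, and its heart muscle list averaged 8.04 against at most 3.67 in the other 23 libraries. It also carried 2.33% of its counts on collagen genes, where the other 23 libraries had 0.427% to 0.992%. Where leaving it out turned a direction or moved a value much, the value without it is given as well.

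No collagen passed an adjusted p of 0.05 in any of the 13 comparisons by edgeR's quasi-likelihood test, by DESeq2 or by limma voom. Among all genes, DESeq2 passed 0 to 51 per comparison, the most for any difference among the 8 groups (40 for day 12 against day 6 over the 4 dose groups). Limma voom passed 0 to 16, the most for day 12 against day 6 over the 4 dose groups. Over all 11426 genes tested by edgeR, 0% passed in 11 of these comparisons: each dose against the control of its day, the dose slope of day 12, the difference of the dose slopes, day 12 against day 6 in controls and over the 4 dose groups, and any difference among the 8 groups. In the dose slope of day 6, 0.00875% of all genes passed, and in the mean dose slope of both days 0.0263%. At an unadjusted p under 0.05, edgeR counted 4 of 22 collagens at 20 mg/mL on day 12 (3.68% of all genes), 5 in the dose slope of day 12 (4.36%), 3 in the mean dose slope (3.53%) and 2 between the days over all doses (9.28%). Without replicate 2 of 20 mg/mL at day 12 these counts were 1 (2.28%), 1 (2.4%), 1 (2.72%) and 4 (8.94%) of 22, so the first 3 rested on that library. It counted 1 at 5 mg/mL on day 6 (4.69%), 1 in the dose slope of day 6 (4.87%) and 1 for any difference (4.17%, or 2 and 3.98% without that library). It counted 0 at 10 mg/mL (2.7%) and 20 mg/mL (4.07%) on day 6, 5 mg/mL (1.25%) and 10 mg/mL (2.09%) on day 12, in the difference of slopes (5.58%) and between the controls of the days (2.48%). At 20 mg/mL DESeq2 counted 1 at day 6 (4.76% of all genes) and 4 at day 12 (4.28%) by unadjusted p, and limma voom 2 (11.3%) and 1 (4.45%). Over the 13 comparisons DESeq2 counted 0 to 5, the most in the dose slope of day 12 (4.92% of all genes), and limma voom 0 to 7, the most at 5 mg/mL on day 6 (19.7%). In bulk RNA, fewer cells of a type and less RNA per cell cannot be told apart.

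At 20 mg/mL on day 6, 8 of the 22 tested collagens had a log2 fold change above 0 (49.6% of all genes did) and their median was -0.20 against -0.003 over all genes. On day 12 at the same dose, 14 of 22 lay above 0 (51.4% of all genes) and the median was 0.13 against 0.01. Without replicate 2 of 20 mg/mL that day, 7 of 22 lay above 0 and the median was -0.23. Precision differed widely: the 95% interval lay wholly within 1 log2 unit of 0 for 4 collagens at day 6 and for 6 at day 12. The lower doses gave medians of -0.28 (5 mg/mL, 2 of 22 above 0, 49.1% of all genes) and -0.19 (10 mg/mL, 8 of 22, 50.1%) at day 6. At day 12 they were 0.05 (12 of 22, 49.7%) and 0.10 (16 of 22, 51.2%). Dose slopes lay above 0 for 11 of 22 at day 6 (49.5% of all genes), 15 at day 12 (51.6%), 12 in the mean of both days (51%) and 14 in their difference (52%). Without replicate 2 of 20 mg/mL at day 12, the slopes above 0 were 7 of 22 at day 12 (48.6% of all genes, median -0.05), 8 in the mean (49.7%) and 7 in the difference (48.9%). The doses of a day share their 3 control libraries.

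Few collagens had dose groups that did not overlap their controls. At day 6 none was wholly higher than control at 5, 10 or 20 mg/mL (4.17%, 2.98% and 4.07% of all genes were), and 3, 1 and 1 were wholly lower (4.13%, 3.24% and 4.67%). Those were Col4a4, Col11a1 and Col14a1 at 5 mg/mL, Col16a1 at 10 mg/mL and Col13a1 at 20 mg/mL. At day 12, Col5a3 was wholly higher at 5 mg/mL (3.86% of all genes) and 20 mg/mL (3.57%), and none was at 10 mg/mL (3.91%). Col7a1 was wholly lower at 20 mg/mL (4.09%), and none was at 5 mg/mL (3.93%) or 10 mg/mL (4.55%).

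**Figure D1:**
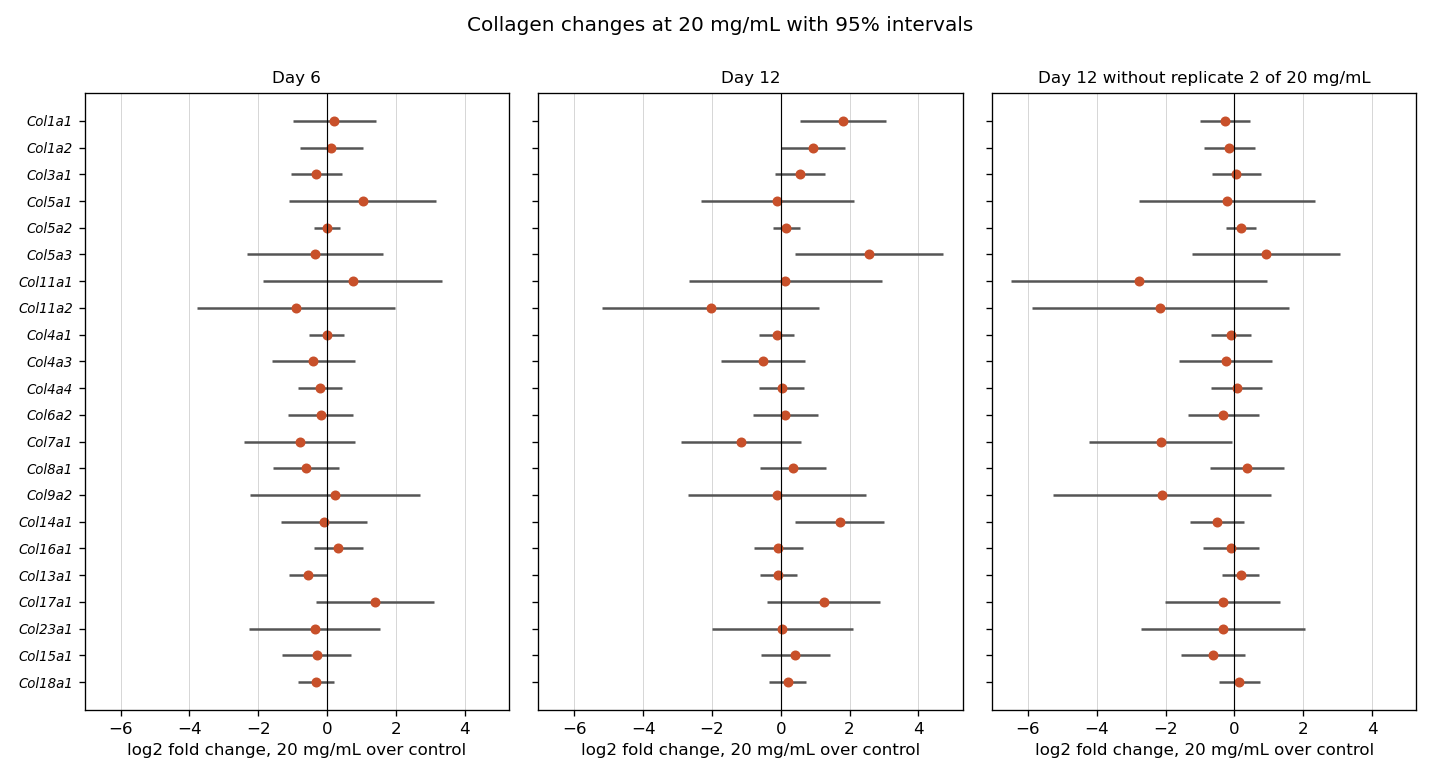
Log2 fold change of each of the 22 tested collagens at 20 mg/mL over control (points) with its 95% interval (lines), at day 6, at day 12, and at day 12 without replicate 2 of 20 mg/mL. At day 12 Col1a1 (1.81), Col14a1 (1.71) and Col5a3 (2.57) lie furthest right of 0, and without that replicate they stand at -0.28, -0.52 and 0.92.

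Fibrillar collagens come first. Type I collagen is the main fibril former, a helix of Col1a1 and Col1a2 chains. On day 6 Col1a1 measured 1039.9, 1312 and 1473 CPM in the controls, 825, 939 and 1691 at 5 mg/mL, 1315, 1367 and 1435 at 10 mg/mL and 1231, 938 and 2276 at 20 mg/mL. At day 12 it measured 549, 1162 and 1221 CPM in the controls, 1045, 1110.2 and 956 at 5 mg/mL, 942, 1037 and 1169 at 10 mg/mL and 855, 8693 and 761 at 20 mg/mL. One library, replicate 2 of 20 mg/mL at day 12, stood far above all others, while its 2 companions lay below 2 of the 3 controls. The group means of day 12 were 977 ± 372 CPM in controls and 3436 ± 4553 at 20 mg/mL (SD, n = 3), a log2 fold change of 1.81 (SE 0.60, unadjusted p = 0.00624, adjusted p = 0.998, edgeR). Without that replicate the change was -0.28 (95% interval -1.003 to 0.452). At day 6 it was 0.22 (-0.99 to 1.42), with the highest value of the day in replicate 3 of 20 mg/mL, the library ranked second in heart muscle genes, and -0.23 without it.

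On day 6 Col1a2 had 1204, 1399.7 and 1549.7 CPM in the controls, 645, 889 and 1836 at 5 mg/mL, 1291, 860.5 and 1590.1 at 10 mg/mL and 1669, 1210.4 and 1661 at 20 mg/mL. After 12 days Col1a2 had 738, 1390.0 and 1645 CPM in the controls, 1546, 1535 and 1399 at 5 mg/mL, 1414, 1572 and 1412 at 10 mg/mL and 1264, 4951 and 995 at 20 mg/mL. The same library was highest, and the lowest values of each day were in libraries with few detected genes. The log2 fold change at 20 mg/mL was 0.13 (-0.79 to 1.05) at day 6 and 0.93 (SE 0.45, unadjusted p = 0.0482, adjusted p = 0.998, edgeR) at day 12, or -0.16 without replicate 2. The ratio of Col1a1 to Col1a2 counts was 1.76 in that replicate and 0.660 to 1.59 elsewhere. From the RefSeq promoter window of Col1a2, 90 bases (build GRCr8, chr4:33518307-33518396, plus strand) are shown because it is the type I chain with a promoter entry. Its capitals mark ATTGG, the reverse complement of a CCAAT box, 221 bases before the annotated start, and TATAAA, 170 bases before it.
Col1a2: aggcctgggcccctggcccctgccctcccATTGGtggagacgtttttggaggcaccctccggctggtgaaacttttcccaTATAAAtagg
Promoter entries were found for 22 of the 27 collagens, not for Col1a1 or Col3a1. Searched on both strands in the 250 bases before the start, CCAAT was in 6 of the 22 (34.0% of 33469 RefSeq promoters), TATAAA in 3 (12.9%) and GGGCGG in 12 (30.5%). A match is a description of letters, not a site.

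Col3a1 encodes type III collagen, which co-assembles with type I in elastic tissues. The day 6 levels of Col3a1 were 5494, 2986 and 2771 CPM in the controls, 3581, 4039.8 and 3247 at 5 mg/mL, 5022, 5552 and 2998 at 10 mg/mL and 3473, 2766 and 2869.7 at 20 mg/mL. On day 12 Col3a1 stood at 1514, 3000.4 and 2804 CPM in the controls, 2464, 2479.8 and 1876 at 5 mg/mL, 1969.9, 3354 and 2153 at 10 mg/mL and 2050.4, 5738 and 2994 at 20 mg/mL. Replicate 2 of 20 mg/mL was again highest, but only just above replicate 2 of 10 mg/mL at day 6. The next highest values, 5022 and 5494 CPM, were also from day 6. The log2 difference of day 12 from day 6 over the 4 dose groups was -0.48 (SE 0.18, unadjusted p = 0.0126, adjusted p = 0.432, edgeR), the smallest p of any collagen in that comparison. It was -0.61 (adjusted p = 0.336, edgeR) without replicate 2 of 20 mg/mL at day 12. Without the 8 fewest-detected libraries, which left only replicate 3 of 5 and of 10 mg/mL at day 6, it was -0.12. The change at 20 mg/mL was -0.30 (-1.03 to 0.42) at day 6 and 0.56 (-0.17 to 1.29) at day 12, or 0.05 (-0.67 to 0.76) without replicate 2. The ratio of Col1a1 to Col3a1 counts was 1.51 in the high library and 0.189 to 0.793 in the other 23.

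Type V collagen is a minor partner that is built into type I fibrils and limits their width. Its chain Col5a2, chosen after its values were seen, was the steadiest collagen, with a within-group SD of 0.20 on the log2 CPM scale and levels of 233 to 422 CPM. Its difference from control at 20 mg/mL was 0.01 (-0.38 to 0.39) at day 6 and 0.16 (-0.22 to 0.55) at day 12. By contrast Col5a3, a low chain of the same type, read at day 6 0.895, 8.56 and 17.5 CPM in the controls, 1.87, 2.22 and 9.63 at 5 mg/mL, 2.88, 0.623 and 8.72 at 10 mg/mL and 2.03, 4.11 and 14.6 at 20 mg/mL. At day 12 Col5a3 read 0.810, 2.89 and 2.92 CPM in the controls, 5.11, 7.70 and 6.39 at 5 mg/mL, 2.56, 4.52 and 8.88 at 10 mg/mL and 5.55, 31.9 and 3.06 at 20 mg/mL. All 3 libraries of 20 mg/mL exceeded all 3 controls at day 12, as did those of 5 mg/mL. The log2 fold change at 20 mg/mL was 2.57 (SE 1.04, unadjusted p = 0.0214, adjusted p = 0.998, edgeR), and 0.92 (-1.24 to 3.08) without replicate 2. The 3 controls had 4, 16 and 21 counts.

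The remaining fibrillar chains were low. Col5a1 reached 3.92 CPM, Col11a1 2.30 CPM and Col11a2 6.04 CPM, and each was at 0 in at least 1 library. Type XI chains are best known from cartilage, and so is Col2a1, which had 0 counts in all 24 libraries. Of the 8 tested fibrillar collagens, 5 had a log2 fold change above 0 at 20 mg/mL on day 6 (median 0.07) and 6 on day 12 (median 0.36), with none past the adjusted threshold. Without replicate 2 of 20 mg/mL, 3 of the 8 lay above 0 on day 12 and the median was -0.18.

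**Figure D2:**
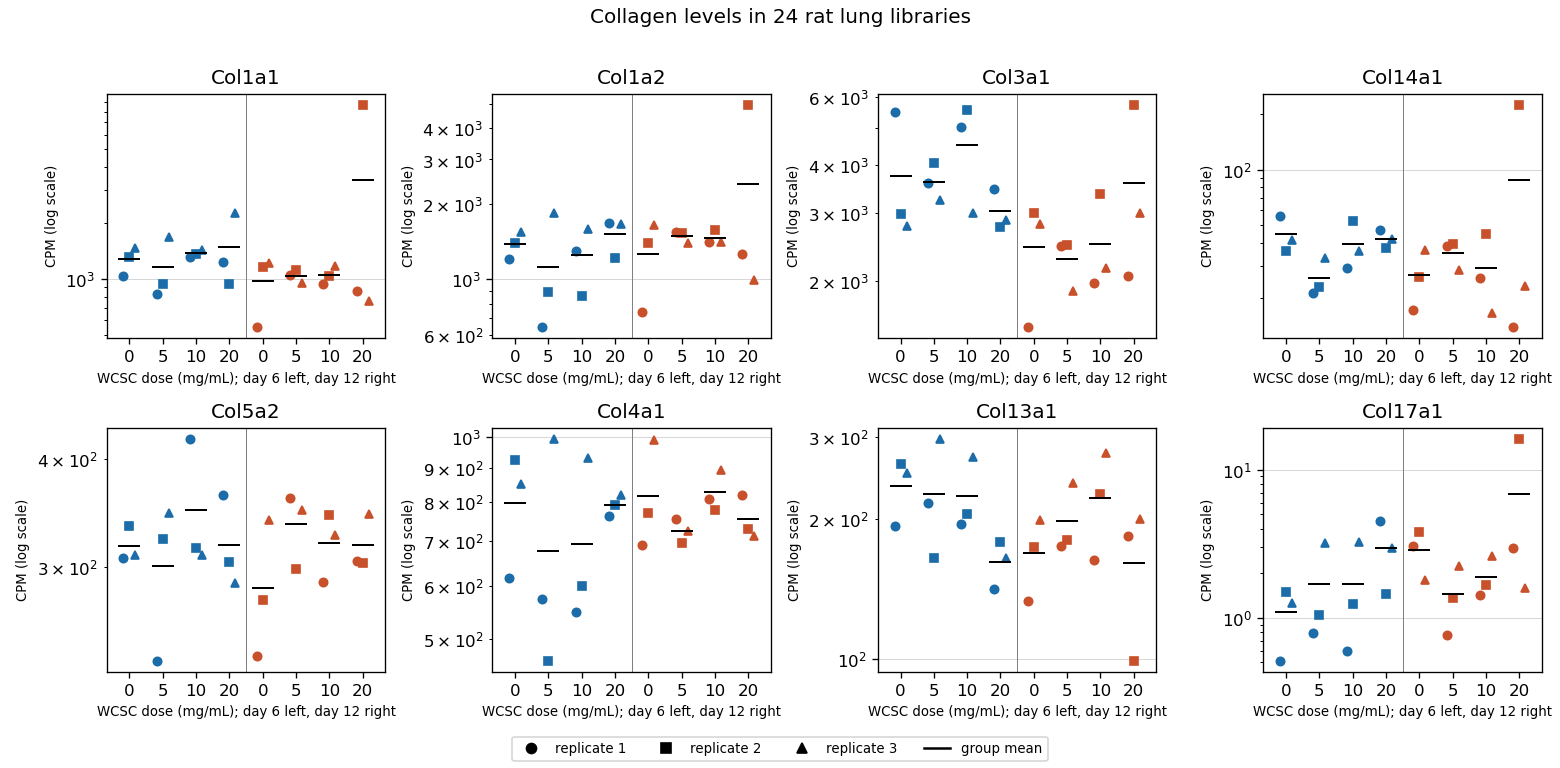
CPM (log scale) of 8 collagens in the 24 libraries by WCSC dose, day 6 on the left and day 12 on the right of each panel. Marker shapes give the replicate number and bars the group means. Replicate 2 of 20 mg/mL at day 12 is the top point for Col1a1 (8693), Col1a2 (4951), Col3a1 (5738), Col14a1 (225) and Col17a1 (16.1) and the lowest for Col13a1 (99.1), but lies among the others for Col5a2 (302.8) and Col4a1 (729.7).

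Basement membranes are the thin sheets under epithelium and around capillaries, and Col4a1 is a chain of their ubiquitous type IV network. Its day 6 levels were 617, 924 and 852 CPM in the controls, 573, 464 and 994 at 5 mg/mL, 549, 599 and 931 at 10 mg/mL and 761, 793 and 819 at 20 mg/mL. Its day 12 levels were 689, 771 and 991 CPM in the controls, 756, 695 and 724 at 5 mg/mL, 809, 778 and 893 at 10 mg/mL and 819, 729.7 and 711 at 20 mg/mL. The groups overlapped in each comparison, and the 3 libraries of 20 mg/mL at day 6 lay within a narrow band. The log2 fold change at 20 mg/mL was -0.01 (-0.52 to 0.50) at day 6 and -0.12 (-0.63 to 0.39) at day 12, intervals that exclude a change of 1 log2 unit.

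Col4a3 and Col4a4 belong to the specialised type IV network of the alveolar and glomerular basement membranes, and their genes lie head to head. At day 6 Col4a4 gave 45.8, 51.3 and 51.8 CPM in the controls, 26.0, 41.7 and 28.9 at 5 mg/mL, 23.3, 45.4 and 55.4 at 10 mg/mL and 45.0, 51.4 and 33.0 at 20 mg/mL. At day 12 Col4a4 gave 64.0, 34.2 and 45.6 CPM in the controls, 43.8, 44.7 and 56.9 at 5 mg/mL, 48.3, 22.1 and 56.5 at 10 mg/mL and 50.4, 45.7 and 50.3 at 20 mg/mL. All 3 libraries of 5 mg/mL at day 6 lay below their controls. Col4a3, described because it shares a promoter, ranged from 6.29 to 43.6 CPM, and the ratio of its counts to those of Col4a4 ran from 0.163 to 1.14. The log2 fold changes at 20 mg/mL were -0.40 and -0.52 for Col4a3, and -0.20 and 0.03 for Col4a4, at days 6 and 12, each with an interval that includes 0. Without replicate 2 of 20 mg/mL at day 12, Col4a3 had -0.25 on that day. The 250 bases before the Col4a3 start (RefSeq, GRCr8, chr9:91323740-91323989, plus strand) are shown because the pair shares them in part. Their first 88 bases, in capitals, also lie in the promoter window of Col4a4 on the other strand.
Col4a3: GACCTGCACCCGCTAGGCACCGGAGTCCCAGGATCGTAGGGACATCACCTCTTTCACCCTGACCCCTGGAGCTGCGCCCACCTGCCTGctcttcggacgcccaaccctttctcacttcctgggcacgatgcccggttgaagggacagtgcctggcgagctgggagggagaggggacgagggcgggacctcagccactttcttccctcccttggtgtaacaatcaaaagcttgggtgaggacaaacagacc
All 3 tested type IV chains had a log2 fold change below 0 at 20 mg/mL on day 6, and 1 had one above 0 on day 12, with none past the adjusted threshold.

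Col6a2 is a chain of type VI collagen, whose beaded filaments link fibrils to cells. Its levels on day 6 were 143, 269 and 277 CPM in the controls, 129, 70.1 and 376 at 5 mg/mL, 136, 121 and 269 at 10 mg/mL and 119.6, 225 and 260.1 at 20 mg/mL. Its levels on day 12 were 166, 147 and 190.2 CPM in the controls, 214, 155 and 161 at 5 mg/mL, 133, 173 and 254 at 10 mg/mL and 127, 284 and 142 at 20 mg/mL. Replicate 3 of 5 mg/mL at day 6 was highest and its companion replicate 2 was lowest of all, so the widest range lay within 1 group. In every group of day 6, replicate 3 lay above replicate 1. Its log2 fold change at 20 mg/mL was -0.19 (-1.13 to 0.76) at day 6 and 0.13 (-0.82 to 1.08) at day 12, where leaving out replicate 2 of 20 mg/mL, the second highest of the 24 values, turned it to -0.32 (-1.35 to 0.70). Col7a1 forms the anchoring fibrils below stratified epithelium. It was low at day 6, with 2.94, 7.88 and 9.17 CPM in the controls, 1.28, 1.70 and 7.85 at 5 mg/mL, 2.40, 1.495 and 8.01 at 10 mg/mL and 1.83, 2.18 and 7.42 at 20 mg/mL.

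At day 12 Col7a1 had 3.64, 3.26 and 3.34 CPM in the controls, 3.45, 3.78 and 2.97 at 5 mg/mL, 2.42, 2.51 and 6.83 at 10 mg/mL and 1.39, 3.07 and 0.245 at 20 mg/mL. All 3 libraries of 20 mg/mL lay below the controls. The values behind this are small, 7, 16 and 2 counts against 18, 18 and 24. The log2 fold change was -1.16 (-2.90 to 0.58, unadjusted p = 0.182, adjusted p = 0.998, edgeR), and -2.15 (unadjusted p = 0.0433) without replicate 2. In that fit Col7a1 was the 1 collagen of 22 with an unadjusted p under 0.05 (2.28% of all genes).

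Col8a1, a short-chain collagen of the lining below vessel endothelium, forms hexagonal networks. In the libraries of day 6 it had 10.1, 26.8 and 19.2 CPM in the controls, 9.64, 19.4 and 25.9 at 5 mg/mL, 12.7, 18.4 and 15.7 at 10 mg/mL and 16.5, 11.2 and 9.08 at 20 mg/mL. In those of day 12 it had 3.85, 21.2 and 23.4 CPM in the controls, 16.5, 19.5 and 27.2 at 5 mg/mL, 18.9, 11.2 and 19.8 at 10 mg/mL and 24.2, 20.4 and 17.9 at 20 mg/mL. The groups overlapped at both days, and the lowest value came from control replicate 1 of day 12. The log2 fold change at 20 mg/mL was -0.61 (-1.58 to 0.35) at day 6 and 0.36 (-0.61 to 1.32) at day 12.

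The fibril-associated collagens sit on the surface of fibrils rather than forming them. Col14a1 binds type I fibrils and spaces them. On day 6 Col14a1 measured 55.6, 36.1 and 41.5 CPM in the controls, 21.3, 22.9 and 33.2 at 5 mg/mL, 29.0, 52.8 and 35.8 at 10 mg/mL and 46.8, 37.4 and 41.9 at 20 mg/mL. On day 12 Col14a1 measured 17.2, 26.0 and 36.3 CPM in the controls, 38.2, 39.3 and 28.4 at 5 mg/mL, 25.7, 44.5 and 16.7 at 10 mg/mL and 13.9, 225 and 23.1 at 20 mg/mL. Replicate 2 of 20 mg/mL was high alone, and its 2 companions lay below the middle control. The group means were 26.5 ± 9.55 CPM in controls and 87.4 ± 119 at 20 mg/mL (SD, n = 3), a log2 fold change of 1.71 (SE 0.63, unadjusted p = 0.0119, adjusted p = 0.998, edgeR). It was -0.52 (-1.30 to 0.27) without that replicate, and -0.25 by limma voom. At day 6 it was -0.08 (-1.34 to 1.18).

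Col16a1, another member of this class, is made by fibroblasts and smooth muscle. At day 6 Col16a1 was at 150.5, 157 and 157 CPM in the controls, 119.8, 71.8 and 165 at 5 mg/mL, 108, 111 and 132 at 10 mg/mL and 114, 96.8 and 372 at 20 mg/mL. At day 12 Col16a1 was at 133, 125 and 118 CPM in the controls, 109, 130.5 and 112 at 5 mg/mL, 101, 121 and 155 at 10 mg/mL and 116, 122 and 118 at 20 mg/mL. Replicate 3 of 20 mg/mL at day 6 stood alone at the top, and the high library of day 12 did not stand out. Among controls, all 3 values of day 12 lay below all 3 of day 6, as for 4.21% of all genes, and so did the 10 mg/mL group of day 6 against its control. Its log2 fold change at 20 mg/mL was 0.33 (-0.38 to 1.04) at day 6 and -0.08 (-0.79 to 0.63) at day 12. The cartilage chain Col9a2 was low, from 0 to 5.63 CPM, with changes of 0.25 and -0.11 (-2.10 without the high library) and intervals wider than 2 log2 units on each side.

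Transmembrane collagens span the cell surface. Col13a1 takes part in cell adhesion. On day 6 Col13a1 had 193, 262 and 251 CPM in the controls, 217, 165 and 297 at 5 mg/mL, 195, 205 and 271 at 10 mg/mL and 141, 178 and 165 at 20 mg/mL. On day 12 Col13a1 had 133, 174 and 199 CPM in the controls, 175, 179.9 and 238 at 5 mg/mL, 163, 226 and 277 at 10 mg/mL and 183, 99.1 and 199.9 at 20 mg/mL. At day 6 all 3 libraries of 20 mg/mL lay below all 3 controls. The group means were 235 ± 37.1 and 161 ± 18.8 CPM (SD, n = 3), a log2 fold change of -0.54 (SE 0.26, -1.09 to 0.0008, unadjusted p = 0.0503, adjusted p = 1.00, edgeR). With a covariate for detected genes the change was -0.54 (unadjusted p = 0.0372, edgeR). Without the 8 fewest-detected libraries it was -0.76, from replicates 2 and 3 of the controls and 1 and 3 of 20 mg/mL. With 1 library left out at a time it ran from -0.668 to -0.457 (unadjusted p from 0.0305 to 0.143, edgeR). At day 12 it was -0.07 (-0.62 to 0.47), with the lowest of the 24 values in replicate 2 of 20 mg/mL, and 0.18 (-0.36 to 0.72) without that library. The dose slope of day 6 was -0.27 per 10 mg/mL (SE 0.13, unadjusted p = 0.0418, adjusted p = 1.00, edgeR).

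Col17a1 anchors basal epithelial cells as part of the hemidesmosome. Its low levels on day 6 were 0.511, 1.49 and 1.27 CPM in the controls, 0.787, 1.05 and 3.21 at 5 mg/mL, 0.600, 1.25 and 3.23 at 10 mg/mL and 4.48, 1.45 and 2.94 at 20 mg/mL. On day 12 they were 3.04, 3.80 and 1.81 CPM in the controls, 0.767, 1.36 and 2.23 at 5 mg/mL, 1.42, 1.67 and 2.59 at 10 mg/mL and 2.98, 16.1 and 1.59 at 20 mg/mL. The high library held 84 of the 383 Col17a1 counts in the series, and it was also highest in the basal epithelium list (2.85 against a median of 0.60 over the 24 libraries). Of the 4 genes of that list, Krt15 had 108 CPM there, Krt14 5.76, Tp63 2.11 and Krt5 0.19 CPM. The controls of day 12 all lay above those of day 6, as for 4.71% of all genes. The mean dose slope of both days was 0.72 per 10 mg/mL (SE 0.27, unadjusted p = 0.0133, adjusted p = 1.00, edgeR) and 0.31 without that library. At 20 mg/mL the log2 fold change was 1.41 (-0.30 to 3.13) at day 6 and 1.25 (-0.39 to 2.89) at day 12, the latter -0.34 without it. Col23a1, the third of these chains, reached 2.34 CPM at most.

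Col15a1 and Col18a1 are the multiplexins, basement membrane collagens with sugar chains. Col18a1 is the source of the fragment endostatin. At day 6 Col15a1 measured 16.9, 32.1 and 39.8 CPM in the controls, 19.0, 11.4 and 31.2 at 5 mg/mL, 23.0, 21.4 and 46.7 at 10 mg/mL and 21.4, 25.3 and 25.4 at 20 mg/mL. At day 12 Col15a1 measured 19.2, 22.4 and 32.3 CPM in the controls, 23.1, 22.4 and 11.9 at 5 mg/mL, 16.8, 14.9 and 26.2 at 10 mg/mL and 13.1, 67.6 and 18.8 at 20 mg/mL. Replicate 2 of 20 mg/mL at day 12 was highest, and the log2 fold change of that day was 0.42 (-0.59 to 1.43), or -0.62 without it. At day 6 Col18a1 measured 93.3, 63.8 and 58.4 CPM in the controls, 95.1, 49.3 and 65.4 at 5 mg/mL, 62.1, 87.2 and 84.6 at 10 mg/mL and 45.4, 61.4 and 65.9 at 20 mg/mL. At day 12 Col18a1 measured 58.1, 38.5 and 61.0 CPM in the controls, 69.5, 52.1 and 52.7 at 5 mg/mL, 48.9, 61.4 and 58.0 at 10 mg/mL and 47.2, 64.9 and 68.9 at 20 mg/mL. Col18a1 was not high in that library. The log2 difference of day 12 from day 6 over the 4 doses was -0.28 (SE 0.13, unadjusted p = 0.0361, adjusted p = 0.492, edgeR). That value was -0.26 (unadjusted p = 0.0566, edgeR) with detected genes as a covariate and -0.27 without the 8 fewest-detected libraries. At 20 mg/mL the log2 fold change of Col18a1 was -0.32 (-0.84 to 0.20) at day 6 and 0.20 (-0.33 to 0.73) at day 12.

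The 5 collagens too low to test were Col6a4 (58 counts over 15 libraries), Col26a1 (46 counts over 8), Col9a1 (37 counts over 7), Col27a1 (7 counts over 4) and Col2a1 (0 counts). Col26a1 was highest in replicate 2 of 20 mg/mL at day 12, at 3.26 CPM against at most 1.22 elsewhere. Of the 9 cartilage markers in the files, Acan, Lect1, Matn3 and Hapln1 were at 0 in every library, as was Col2a1. Sox9 (9385 counts), Cytl1 (6065) and Cilp (858) had counts in all 24 libraries, Comp (35) in 10 and Matn1 (2) in 1.

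**Figure D3:**
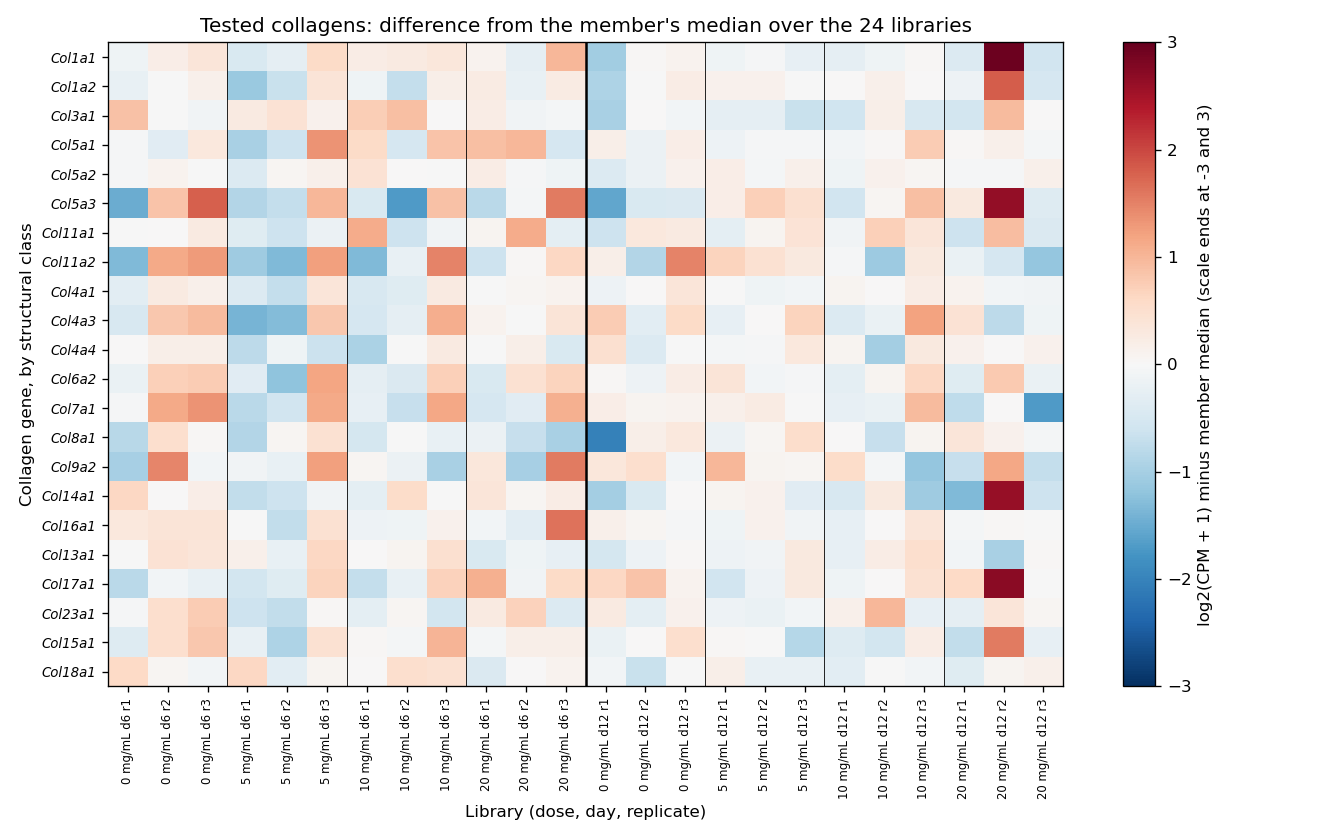
Difference of each tested collagen from its own median over the 24 libraries on the log2(CPM + 1) scale (color, red higher and blue lower, scale ending at -3 and 3), with collagens in rows by class and libraries in columns by day, dose and replicate. The column of replicate 2 of 20 mg/mL at day 12 holds the darkest red cells (Col1a1, Col5a3, Col14a1 and Col17a1).

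Replicate 2 of 20 mg/mL at day 12 had the highest value of all 24 libraries for 7 of the 22 tested collagens (Col1a1, Col1a2, Col3a1, Col5a3, Col14a1, Col15a1 and Col17a1) and the lowest for 1, Col13a1. The share of all genes at their highest or lowest there is not given here, so these counts do not set collagens apart from other genes. The pattern was not shared by all chains: Col5a2 ranked 18 of 24, Col4a1 15 and Col4a3 22. The mean log2(CPM + 1) of the fibroblast list (13 measured genes) reached 7.65 there, against 6.64 to 7.20 in the other 23 libraries. The smooth muscle list (9 genes) reached 8.12 against at most 7.28, and the heart muscle list (9 genes) 8.04. By group, the heart muscle list ran from 0.95 to 1.53 in the controls of day 6, 1.19 to 3.46 in those of day 12, 0.85 to 3.67 at 20 mg/mL on day 6 and 0.84 to 8.04 at 20 mg/mL on day 12. The other 4 groups ran from 1.28 to 2.02. The endothelium list (8 genes) was lowest there, at 7.00. Of the 13 fibroblast genes, 6 were at their highest there (Dcn, Lum, Fbln1, Dpt, Pi16 and Scara5), and 3 were at their lowest (Mfap4, Fn1 and Limch1). Dcn, which encodes a small proteoglycan that coats fibrils, had 786 CPM there and Mfap4, of the elastic fibers, 479 CPM. Airway epithelium lists were at their highest of the 24 libraries too: club and goblet 10.11 against at most 8.04, ciliated 6.11 against 5.54 and basal epithelium 2.85 against 1.495. So were the adipocyte list, 4.52 against 1.65, and the Schwann cell list, 3.42 against 2.70. The skeletal muscle list was also highest there, 2.23 against 1.43, but only 2 of its 7 genes were (Acta1 and Ckm). Its myosin genes Myh1 and Myh4 were at 0 CPM there and Myh2 at 0.58 CPM. By a small margin the cartilage list was highest as well, 1.77 against 1.72, with 3 of its 5 genes with counts at their highest (Matn1, Sox9 and Cilp). The part of this tissue content in the collagen values was not tested.

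Over the samples, the collagen share of all counts was 0.843% ± 0.00448 in the controls of day 6 and 0.767% ± 0.190 at 20 mg/mL on that day (SD, n = 3). At day 12 it was 0.657% ± 0.201 in controls and 1.18% ± 0.993 at 20 mg/mL, where the 3 libraries spanned 0.580% to 2.33%. The dose slopes of day 12 rested on the same library. Col1a1 had a slope of 0.92 per 10 mg/mL (SE 0.28, unadjusted p = 0.00303, adjusted p = 0.697, edgeR) with it and -0.15 without it. Col14a1 went from 0.82 to -0.33, Col1a2 from 0.45 to -0.11, Col5a3 from 1.14 to 0.29 and Col17a1 from 0.78 to -0.04. None of the differences in slope between the days passed (Col1a1 0.78, SE 0.40, adjusted p = 0.885, edgeR), and 0 of 22 had an unadjusted p under 0.05 (5.58% of all genes). Without that library the difference was -0.29 for Col1a1, and 1 of 22 had such a p (4.49% of all genes), Col13a1 at 0.35 (unadjusted p = 0.048).

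The number of detected genes was then tested as a term of its own. In a model with the 8 groups and that number, added after the data were seen, 11 of 22 collagens passed an adjusted p of 0.05, all higher where more genes were detected (12.8% of all genes passed in that direction, 25.2% in either, edgeR). Per 500 detected genes the log2 level was higher by 1.60 for Col5a3 (SE 0.29, adjusted p = 0.000616), by 0.68 for Col6a2 (SE 0.13, adjusted p = 0.00104), by 0.34 for Col4a1 (SE 0.07, adjusted p = 0.00216) and by 0.57 for Col1a2 (SE 0.15, adjusted p = 0.00851). Col7a1, Col11a2, Col15a1, Col17a1, Col4a3, Col1a1 and Col16a1 passed as well. The median over the 22 was 0.52, against 0.05 over all genes. The count was 12 (13.2% of all genes higher) without replicate 2 of 20 mg/mL at day 12 and 8 (7.15%) without replicate 3 of 5 mg/mL at day 6. Within the 12 libraries of day 6 it was 10 of 21 (10.5% of all genes), and within those of day 12 it was 0 of 19 (0% of all genes), with 6 of 19 at an unadjusted p under 0.05 (9.96% of all genes). The number of detected genes comes from the same counts as the levels, and most of the fewest-detected libraries were the deepest. The 6 of them from day 6 were all replicates 1 or 2. Detected genes, depth and replicate number were not tested apart.

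Across the 8 fewest-detected libraries Col1a2 spanned 645 to 1291 CPM, and across the other 16 it spanned 1264 to 4951, so that the ranges barely overlapped. Col4a1 spanned 464 to 793 and 695 to 994 CPM, and Col6a2 70.1 to 225 and 119.6 to 376 CPM. Col3a1, in contrast, spanned 1514 to 5552 CPM in the 8 and 1876 to 5738 in the 16, with a coefficient of -0.13 (SE 0.15, adjusted p = 0.548, edgeR). Col5a2 (0.02, SE 0.08) and Col4a4 (-0.01, SE 0.14) did not pass either. Fibril partners such as Col1a2 and Col3a1, and the promoter pair Col4a3 (0.75, adjusted p = 0.0115) and Col4a4 (adjusted p = 0.972), had coefficients on different sides of the threshold, and the differences between them were not tested.

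**Figure D4:**
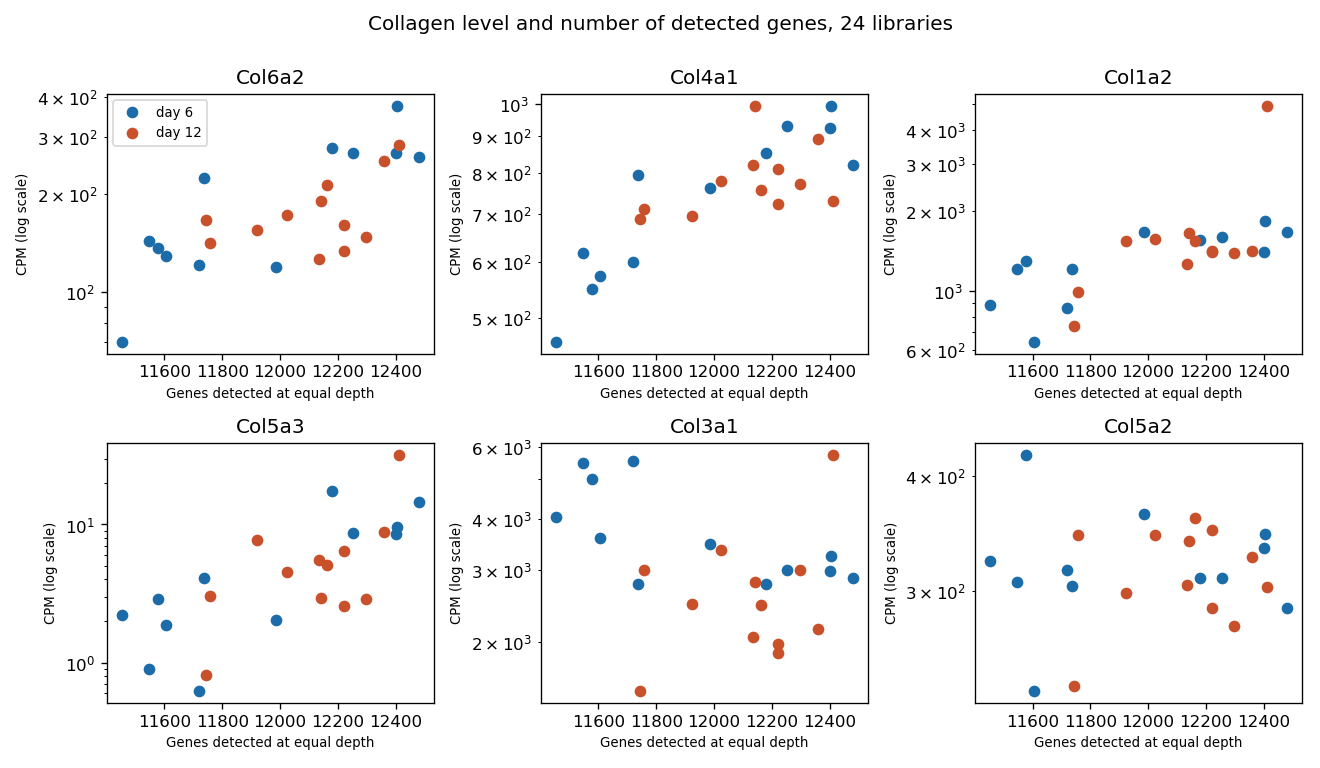
CPM (log scale) of 6 collagens against the number of genes detected after thinning to equal depth, with 1 point per library, blue for day 6 and orange for day 12. Col6a2, Col4a1, Col1a2 and Col5a3 are higher to the right, the coefficients being 0.68, 0.34, 0.57 and 1.60 per 500 genes, while Col3a1 and Col5a2 have coefficients of -0.13 and 0.02.

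The spread between replicates was measured as well. The median within-group SD was 0.70 on the log2 CPM scale for the 22, against 0.42 over all 11426 genes. It was lowest for Col5a2 (0.20), Col4a1 (0.29), Col18a1 (0.32) and Col13a1 (0.34), and highest for Col11a2 (1.65), Col9a2 (1.38) and Col5a3 (1.35). Among the controls alone, 3 of 22 collagens were higher at day 12 than at day 6 (47.8% of all genes), with a median log2 difference of -0.28 against -0.015. Over the 4 dose groups it was 10 of 22 (48.7% of all genes) with a median of -0.03, and 7 of 22 (46.7%) with a median of -0.28 without replicate 2 of 20 mg/mL at day 12.

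Genes that fold, export, crosslink, bind and break down collagen were read from lists. No member of the 8 lists passed the adjusted threshold at 20 mg/mL on either day by edgeR. An unadjusted p under 0.05 was reached at day 6 and day 12 by 1 and 2 fibril-associated genes, 1 and 1 receptors, 1 and 1 TGF-beta genes and 0 genes of the other 5 lists (4.07% and 3.68% of all genes). Of the 17 tested genes of folding and modification, 8 lay above 0 at day 6 (median -0.001) and 7 at day 12 (median -0.06). Without replicate 2 of 20 mg/mL at day 12, an unadjusted p under 0.05 was reached that day by 1 gene each of folding, breakdown and TGF-beta signalling and by 0 of the other lists (2.28% of all genes). Serpinh1, the collagen-specific chaperone, had a log2 fold change of 0.28 (SE 0.20) at day 6 and -0.24 (SE 0.20) at day 12 (-0.11 without that library), and P4hb, a subunit of the enzyme that hydroxylates collagen prolines, 0.27 (SE 0.17) and 0.002 (SE 0.17). For secretion and propeptide trimming the counts were 3 and 4 of 8 (medians -0.25 and -0.03, the latter -0.45 without that library). For crosslinking they were 3 and 5 of 6 (0.04 and 0.27), and Lox, which links collagen lysines, had 0.29 (SE 0.84) and 0.48 (SE 0.90), the latter 0.98 without that library.

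Of the 26 tested fibril-associated matrix genes, 19 lay above 0 at day 6 (median 0.10) and 17 at day 12 (median 0.15). In this list Dcn had a log2 fold change of 1.72 (SE 0.59, unadjusted p = 0.00801, adjusted p = 0.998, edgeR) and Lum 1.25 (SE 0.51, adjusted p = 0.998, edgeR) at day 12, where both were highest in the library that was high in Col1a1. Without that library Dcn had 0.15 (SE 0.46) and Lum -0.35 (SE 0.33), and 11 of the 26 lay above 0 (median -0.10). Sparc, which binds collagen, had 0.16 (SE 0.25) at day 6 and -0.11 (SE 0.25) at day 12, and Fn1, fibronectin, 0.17 (SE 0.27) and 0.21 (SE 0.27), the latter 0.47 (SE 0.26) without that library. Of the 9 basement membrane partners 2 lay above 0 at each day (medians -0.10 and -0.21), and 3 at day 12 with a median of -0.06 without that library. Of the 14 genes of collagen breakdown 7 and 9 lay above 0 (medians 0.02 and 0.18), the latter 4 with a median of -0.25 without the high library. Mmp2, a gelatinase, had -0.24 (SE 0.31) and 0.25 (SE 0.31), or -0.15 at day 12 without it, and its inhibitor family member Timp1 0.34 (SE 0.20) and -0.39 (SE 0.20). Of the 6 receptors 3 and 2 lay above 0 (medians -0.14 and -0.11), the latter 3 with a median of 0.03 without the high library. Among 21 genes of TGF-beta signalling, the pathway known to drive collagen transcription, 8 and 11 lay above 0 (medians -0.08 and 0.05), and the ligand Tgfb1 had 0.21 (SE 0.36) and -0.24 (SE 0.37), the latter -0.61 without the high library. Klf10, an early target of that pathway, had 0.22 (SE 0.27) at day 6 and 1.23 (SE 0.27, unadjusted p = 0.00015, adjusted p = 0.593, edgeR) at day 12, and 1.33 (SE 0.30) without it. The median over all genes was -0.003 at day 6 and 0.011 at day 12.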

How the data were processed

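RNA of 24 rat lung libraries was measured with a Lexogen Quant-Seq kit, per the labels' protocols. Build rn6, Bowtie2 and bedtools are named in the submitters' processing notes, with no role or version; annotation and strand setting were not given in these sources. The files the authors deposited hold raw counts per gene symbol, checked to be whole numbers. Of 17048 lines, the 167 that repeat an earlier symbol (0.982% of counts) were left out.

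Genes were kept by filterByExpr (edgeR 4.0.16, R 4.3.3), scaled by TMM (factors 0.805 to 1.12), and fitted by the edgeR quasi-likelihood method to 8 group means over all 24 libraries, with 16 residual degrees of freedom. Tests were two-sided, with p-values adjusted by Benjamini-Hochberg over all 11426 genes (threshold 0.05). Slopes are per 10 mg/mL. Intervals are 95%. Total counts per library of 4795667 to 11109713 limit the low collagens most. The fit was tested on simulated data.

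The collagens, gene lists and tests were chosen with earlier results of these data known. Values in every library are given for the 2 tested collagens with the highest mean CPM of each class, the 6 with the smallest p for any difference among groups, and the 3 with the smallest p at 20 mg/mL on each day, in the mean dose slope and between days; Col5a2, Col4a3 and others were added after their values were seen. Members of gene lists were named by the smallest p or from a preset group (Serpinh1, P4hb, Lox, Sparc, Mmp2, Timp1, Tgfb1, Acta2, Fn1). Of that group, Acta2 is not described here. Alternatives were RLE and upper-quartile scaling, no filter, DESeq2 1.42.0, limma 3.58.1 voom with quality weights, only the groups compared, a replicate block, detected genes as a covariate, libraries or repeated symbols left out, and dose ranks. The fit with detected genes as the tested term, and the fit without the 2 libraries highest in heart muscle genes, were added after seeing the data. Promoter sequences are from RefSeq (GRCr8), whose build differs from that of the files.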

Additional observations from a re-analysis of the deposited data

How the results depend on the processing

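No collagen passed in any of the 13 comparisons under any alternative run. The median log2 fold change of the 22 at 20 mg/mL on day 12 (0.13) became -0.229 without the 2 libraries highest in heart muscle genes (replicate 3 of 20 mg/mL at day 6 and replicate 2 of 20 mg/mL at day 12), and ranged from -0.231 to 0.335 when 1 library at a time was left out. The count of collagens that passed with the number of detected genes was 11, and 0 within the 12 libraries of day 12, where fewer samples were fitted and no gene of 11019 passed. With 1 library left out it ran from 8 to 12, where 7.15% to 14.5% of all genes passed as higher. Without those 2 libraries, values at day 12 turned to -0.275 for Col1a1, -0.515 for Col14a1 and -0.155 for Col1a2, Col1a1 at day 6 to -0.233, and the mean dose slopes to -0.119 (Col1a1) and -0.121 (Col14a1). Limma voom turned Col1a1 (-0.061), Col3a1 (0.01), Col14a1 (0.083) and Col5a2 (-0.001) at day 6, and Col14a1 at day 12 (-0.253). Without the 8 fewest-detected libraries, Col3a1 (0.124) and Col14a1 (0.177) at day 6 and Col5a2 at day 12 (-0.013) turned, and Col5a2 at day 6 went from 0.006 to 0. Col4a1 at day 6 turned from -0.012 to 0.009 by upper-quartile scaling, 0.002 with only the groups compared, 0.001 under the replicate block and 0.003 with detected genes as a covariate. The cause was not tested.

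With 1 library left out at a time, the day 6 log2 fold change at 20 mg/mL ran from -0.233 to 0.459 for Col1a1, -0.481 to 0.077 for Col3a1, -0.209 to 0.114 for Col14a1, -0.101 to 0.074 for Col5a2 and -0.166 to 0.108 for Col4a1. At day 12 it ran from -0.275 to 2.286 for Col1a1, -0.515 to 2.214 for Col14a1, -0.156 to 1.303 for Col1a2 and -0.227 to 0.045 for Col4a1. The mean dose slope ran from -0.004 to 0.655 for Col1a1 and -0.122 to 0.58 for Col14a1. The lowest value in each day 12 and slope range but that of Col4a1 came without replicate 2 of 20 mg/mL at day 12.

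Replicate numbers did not pair the samples by the rule used: deviations of same-numbered libraries correlated at -0.184 to 0.59 (median 0.063, 36 pairs) and those of other numbers at -0.523 to 0.378 (median -0.067, 72 pairs). The rule pooled both days and does not speak for day 6 alone. At day 6 replicate 3 of each group had 12180 to 12481 detected genes, and replicate 1 had 11546 to 11987. In each group of that day Col5a3, Col6a2 and Col7a1 were higher in replicate 3 than in replicate 1, and Col3a1 was lower. A replicate pattern within day 6 was not tested. With the replicate block, 0 collagens passed in each comparison, the median at 20 mg/mL was -0.208 at day 6 and 0.084 at day 12, and Col1a1 at day 12 was 1.335. Depth limits Col5a1, Col11a1, Col11a2, Col9a2, Col7a1, Col17a1 and Col23a1, whose counts per library are small.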
